A study of Homo sapiens with 12 samples.

Results

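Cells of HL-60, a human line established from a promyelocytic leukaemia, were compared 120 h after the first dose of decitabine with cells kept in its vehicle, DMSO, across every gene of the deposited table. All cells carried a genotype labelled WT. The treated wells had received 100 nM decitabine at 0, 24 and 48 h, so the last dose preceded the RNA by an interval without dosing, and the control wells had received DMSO. The comparison used 4 libraries of the 12 labelled, 2 in each group, and 16152 genes of 60240 passed the filter on low values (at least 10 normalised counts in at least 2 of the 11 libraries with values). Cultures were plated in duplicate at 100000 cells per mL, and rRNA-depleted RNA was read as single-end 50 bp reads. Because both duplicates are wells of one line, the p-values reflect well-to-well spread, which may be technical.

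Decitabine is a deoxycytidine analogue. It is phosphorylated by deoxycytidine kinase, built into DNA during replication, and there traps DNA methyltransferases, so that methylation at CpG sites is lost as cells divide. Genes that lie silent under promoter methylation, such as those of the germ line, are its classical responders, and in myeloid leukaemia cells it is also known as an inducer of differentiation. HL-60 cells are arrested near the promyelocyte stage, carry amplified MYC, and can be driven towards neutrophils, monocytes or eosinophils in culture.

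The marker genes of the label were present. MPO, the myeloperoxidase of primary granules, stood at 116800 and 106600 normalised counts with decitabine and 178300 and 122700 with DMSO. The 5 promyelocyte markers (MPO, ELANE, PRTN3, AZU1 and CTSG) summed to 122075 and 111621 normalised counts with decitabine and to 184220 and 128566 with DMSO, and 0 of 5 were called changed. Markers of red cells and platelets were absent: HBA1, HBA2, HBB, AHSP, PF4, PPBP and GP9 were listed at 0 in all 4 libraries, as were EPCAM, KRT19 and COL3A1. The estimated depth of the 4 libraries lay between 17993753 and 18618827 counts. A single transcript, FP671120.7, took 7.31 and 3.89% of the counts with decitabine and 8.08 and 10.9% with DMSO, and its part in the results was not tested. More genes were detected above 0 after decitabine (28072 and 28275) than in DMSO (25205 and 25416). The median absolute log2 difference between libraries was 0.19 within the decitabine pair, 0.26 within the DMSO pair and 0.50 to 0.54 between the groups.

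At 120 h, 1601 genes rose and 969 fell in limma at an adjusted p under 0.05, which is 15.9% of the genes tested (9.91% higher and 6% lower). Changes upwards were the larger: 1326 of the genes that rose (8.21% of those tested) and 485 of those that fell (3%) differed by at least 2-fold, and 396 against 13 by at least 8-fold. Rises and falls lay at different levels in DMSO, in part because a gene near 0 cannot fall. Among 228 tested genes with a DMSO mean under 1 normalised count, 140 rose and 0 fell, whereas of 2647 genes between 1000 and 10000, 136 rose and 335 fell. Of the 1601 genes that rose, 332 lay under 10 in every DMSO library and entered the test only through decitabine. The genes that rose together took 13.05 and 13.7% of all counts with decitabine against 4.84 and 4.66% with DMSO, and the genes that fell took 6.05 and 6.53% against 11.7 and 11.3%. The groups did not overlap for 10780 of the genes tested (66.7%), so separation alone does not mark a gene. Among the 1601 and the 969 genes called, 0 overlapped, so separation adds nothing to a call. In bulk RNA, fewer cells of a type and less RNA per cell cannot be told apart.

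Single libraries moved these counts. Without decitabine 120 h replicate 1 or 2, 591 and 640 genes rose and 207 and 249 fell. Leaving out DMSO 120 h replicate 1 or 2 gave 895 and 829 that rose and 336 and 253 that fell. Without decitabine 72 h replicate 1 or 2, 2557 and 2556 rose and 2392 and 2390 fell: those libraries lay 0.59 apart in median log2 and enter the shared estimate of the spread. No gene was called in opposite directions in any alternative. The split depended on scaling: 62.3% of the calls were rises here, 50.8% after quantile normalisation (1513 higher and 1465 lower) and 53.2% with trimmed-mean scaling (1428 and 1255). The median change of all genes tested moved with it, from 0.07 to -0.10 and -0.02. The sign of the list medians given here was the same under both scalings, except for the erythroid and megakaryocyte list. Their size could still change, as for the lymphoid list, from 1.10 to 0.02 after quantile normalisation.

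**Figure D1:**
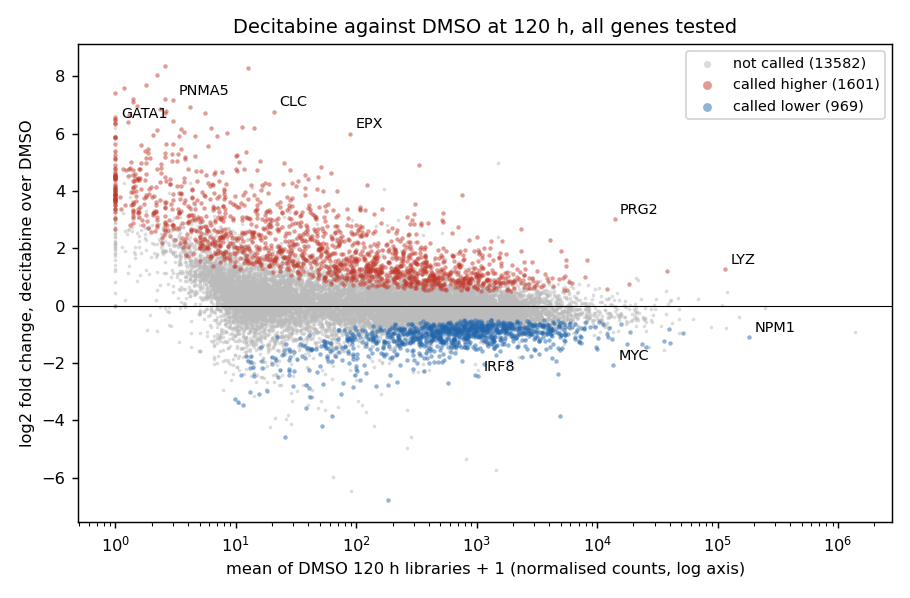
Each point is a tested gene, with the mean of normalised counts in the 2 DMSO 120 h libraries on a log axis and the log2 change with decitabine on the vertical axis. Colours mark genes called higher (1601), lower (969) or not called. The points at the left, at low DMSO levels, spread upwards, and the genes called lower lie mostly at middle and high levels.

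The genes with the largest rises were all but silent in DMSO. COL14A1, a fibril-associated collagen, stood at 855 and 787 normalised counts with decitabine and 0.901 and 2.27 with DMSO, a change of 8.36 ± 0.46 on the log2 scale (SE; limma adjusted p = 6.66e-05). FAM9C, an X-linked gene (chrX:13035618-13044682 on GRCh38), had 3489 and 3170 with decitabine and 5.01 and 18.01 with DMSO. PNMA5, a paraneoplastic antigen gene derived from a retrotransposon gag sequence (chrX:152988824-152994127), gave 423 and 374 with decitabine and 0.809 and 3.26 with DMSO. The groups did not overlap for any of them, as for every gene called, and the duplicates lay close together relative to the distance between groups. TKTL1, a transketolase-like gene, and DNAH8, an axonemal dynein heavy chain, followed the same form, with 233 and 212 with decitabine and 0.373 and 0 with DMSO and 158 and 221 with decitabine and 0.507 and 0.5105 with DMSO respectively, as did LUM, which encodes the matrix proteoglycan lumican (206 and 234 with decitabine and 0 and 2.67 with DMSO). RHOXF2B, a reproductive homeobox gene with a near-identical neighbour between which reads could be split, stood at 183 and 184 with decitabine and 0.798 and 0 with DMSO. Across all chromosomes, 75 of 504 tested genes of chromosome X rose (14.9%, against 9.91% of all genes), of which FAM9C, PNMA5, TKTL1 and RHOXF2B are examples. Of these 504 genes, 46 lay under 10 in every DMSO library and passed only through a treated one, as did 949 of all 16152. The 75 may include some of these 46, but their number is not given here.

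The largest falls were smaller in size and came partly from copies that counting cannot separate. Of the 15 genes that fell most, EIF3CL, YBX1P10, NPM1P27, SNRPEP2, RPL23AP74 and RPL23AP49 are near-identical copies or pseudogenes of expressed genes, and their values are uncertain; leaving out single 120 h libraries removed the call of EIF3CL, YBX1P10, NPM1P27, SNRPEP2 and RPL23AP49. Among single-copy genes, CCR2, the receptor of the monocyte chemokine CCL2 (chr3:46353734-46360928), fell from 193 and 168 normalised counts in DMSO to 28.7 and 22.96 with decitabine, a change of -2.77 ± 0.21 (adjusted p = 0.000189). MATK, a tyrosine kinase of haematopoietic cells that acts on SRC-family kinases, went from 593 and 569.6 to 98.05 and 79.9 (-2.70 ± 0.17, adjusted p = 8.84e-05). PALD1, DNAJC12, DDN and RXFP1 each lay under 25 in both decitabine libraries and above 80 in both DMSO libraries.

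Genes of the eosinophil, basophil and mast cell lineages had the highest median change of the lineage lists. Eosinophils carry cationic granule proteins, are sustained by interleukin 5 and arise under GATA1 and GATA2, and HL-60 sublines are known to be able to enter this path. Of 22 listed genes, 19 were tested, 7 of which lay under 10 in every DMSO library and passed only through a treated one, and 16 rose and 0 fell, with a median log2 change of 3.85 against 0.07 over all genes tested. CLC, the Charcot-Leyden crystal protein galectin-10 (chr19:39731250-39738028), stood at 2105 and 2333 normalised counts with decitabine and 22.4 and 16.9 with DMSO, a 113-fold difference of means (6.76 ± 0.45 on the log2 scale, limma adjusted p = 0.000106). IL5RA, the ligand-binding chain of the interleukin 5 receptor (chr3:3066326-3126613), had 802 and 828 with decitabine and 13.2 and 7.33 with DMSO. IL1RL1, the receptor of interleukin 33, gave 492 and 477 with decitabine and 2.12 and 4.14 with DMSO, and HDC, which makes histamine, 103 and 108 with decitabine and 0 and 0.562 with DMSO. Both decitabine libraries exceeded both DMSO libraries many-fold for each of these genes. The 5 eosinophil markers EPX, PRG2, CLC, IL5RA and CCR3 all rose and summed to 116652 and 127338 normalised counts with decitabine against 13559 and 14591 with DMSO, most of it from PRG2, the granule major basic protein. The receptor CCR3, at 72.4 and 71.5 with decitabine and 2.03 and 3.44 with DMSO, and the lipoxygenase ALOX15 were among the low members. The mast cell genes MS4A2, KIT and TPSB2 had log2 changes of 0.74, 0.28 and 0.07 and did not pass the test.

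The transcription factors of this path were measured too. GATA1 (chrX:48786554-48794311) was listed at 0 in both DMSO libraries and stood at 81.5 and 80.1 normalised counts with decitabine. GATA2, already expressed, rose from 232 and 252 to 896 and 893 (1.88 ± 0.18, adjusted p = 0.000516). GATA1 also heads the erythroid and megakaryocyte list, where 3 of 10 tested members rose and 1 fell: besides GATA1 these were ITGA2B, the platelet integrin chain, at 352 and 346 with decitabine and 14.5 and 21.4 with DMSO, and GFI1B, a repressor, at 101 and 108 with decitabine and 10.2 and 5.52 with DMSO, while TFRC, the transferrin receptor, fell from 8750 and 8695 to 4747 and 5621. TFRC lost its call without any one of the 4 libraries. The median of this list, 0.38, became -0.01 after quantile normalisation, and HBA1, HBA2 and HBB stayed at 0, as given above. PTGDR2, the prostaglandin D2 receptor of eosinophils and basophils, was among the 15 genes with the largest rises, at 274 and 266 with decitabine and 1.597 and 1.61 with DMSO, together with HPGD, which inactivates prostaglandins, at 519.6 and 585 with decitabine and 2.96 and 6.04 with DMSO.

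The promoter of CLC is shown because GATA factors bind WGATAR-type sites and CLC, among the largest rises of the list, holds a form of these, AGATAA. The windows of IL5RA, HDC and GATA1 hold 0 matches to AGATAA on either strand. Other WGATAR forms, which occur in the windows of CLC and IL5RA, were not searched and are not marked. The window below, from RefSeq on GRCh38.p14, runs from 250 bases before to 50 after the annotated start (chr19:39737980-39738279, minus strand, written 5′ to 3′ on the strand of the gene), with the letters TTATCT, the reverse complement of AGATAA, in capitals.
CLC: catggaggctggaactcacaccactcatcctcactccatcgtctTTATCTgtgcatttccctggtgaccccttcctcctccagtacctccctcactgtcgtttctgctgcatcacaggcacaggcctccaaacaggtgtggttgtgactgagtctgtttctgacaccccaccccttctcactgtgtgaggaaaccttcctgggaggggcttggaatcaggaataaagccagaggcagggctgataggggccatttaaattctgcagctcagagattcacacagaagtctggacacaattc
Over all 27305 genes of the window table, 10.6% of windows hold AGATAA on either strand, averaged by gene. A share for the eosinophil list is not given, since 15 of its 19 tested genes, under 80%, had a window. A match of letters is a description and not evidence of binding.

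Many neutrophil genes rose as well, though not the defining genes of the primary granules. Neutrophil granules are made in order: primary granules at the promyelocyte stage, secondary and tertiary granules later, and surface receptors last. In the primary granule list, 8 of 18 tested members rose and 0 fell (median 0.75), yet the serine proteases and MPO that define the class did not pass the test: the log2 change was -0.41 for MPO, -1.13 for ELANE, -0.11 for PRTN3, 0.44 for AZU1 and -0.16 for CTSG. The members that rose included BPI, a bactericidal protein, at 4058 and 4363 with decitabine and 886 and 838 with DMSO, and CD63, a granule membrane protein, at 3722 and 3786 with decitabine and 1114 and 969 with DMSO. That count was 2 to 5 without any one of the 120 h or 6 h libraries, and ELANE and AZU1 passed the test without either decitabine 72 h library.

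In the secondary and tertiary granule list, 11 of 17 tested members rose and 1 fell (median 2.00), where 9.91% of all genes tested rose. Among the 17, 3 lay under 10 in every DMSO library and passed the filter only through a treated one. MMP9, the gelatinase of tertiary granules (chr20:46008908-46016561), stood at 227 and 223 normalised counts with decitabine and 0 and 3.22 with DMSO (6.78 ± 0.72, adjusted p = 0.000738). LCN2, a siderophore-binding protein, gave 54.6 and 50.1 with decitabine and 2.23 and 1.498 with DMSO, and TCN1, a cobalamin carrier, 260.5 and 258 with decitabine and 21.5 and 29.4 with DMSO. The groups were far apart for these 3 genes. In contrast MMP8, the collagenase of secondary granules and the 1 member that fell, went from 30.0 and 12.8 to 2.97 and 2.36, a call lost without either decitabine 120 h library or DMSO 120 h replicate 1. LTF, lactoferrin, was at 9.73 and 13.1 with decitabine and 29.7 and 34.01 with DMSO without passing the test. The late neutrophil markers thus split: of LTF, LCN2, CAMP, MMP8, CXCR2 and FCGR3B, 2 rose and 1 fell, and their summed level was 664 and 506 with decitabine against 185 and 245 with DMSO.

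Of 24 tested genes of the mature neutrophil surface and cytosol, 16 rose and 0 fell (median 2.52), where 9.91% of all genes tested rose. Among the 24, 3 lay under 10 in every DMSO library and passed the filter only through a treated one. VNN2, a GPI-anchored pantetheinase used in adhesion (chr6:132743870-132763459), stood at 2308 and 2218 normalised counts with decitabine and 127 and 115 with DMSO, 18.7-fold higher by the means (4.21 ± 0.32, limma adjusted p = 0.000171). AQP9, a water and glycerol channel, was at 294 and 307 with decitabine and 13.7 and 17.2 with DMSO, and FPR1, a receptor of formylated bacterial peptides, at 221 and 231 with decitabine and 19.5 and 27.1 with DMSO. ITGAM, the CD11b integrin chain used as a marker of myeloid maturation, rose from 211 and 328 to 1133 and 1321 (2.21 ± 0.24, adjusted p = 0.000833). Each was separated between groups by several times the difference between duplicates. CSF3R, the receptor of granulocyte colony-stimulating factor, was at 732 and 737 with decitabine and 553 and 552 with DMSO and did not pass the test (adjusted p = 0.0993), although the groups did not overlap.

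Of 7 genes of the NADPH oxidase, which makes superoxide in mature phagocytes, 5 rose and 0 fell (median 1.90). CYBB, the catalytic gp91-phox, was at 18440 and 18600 with decitabine and 4893 and 5042 with DMSO (1.90 ± 0.14, adjusted p = 0.000145), and HVCN1, a proton channel that balances its charge, at 1803 and 1727 with decitabine and 317 and 313 with DMSO. NCF1 also rose, at 2490 and 2394 with decitabine and 263 and 418 with DMSO, but it has near-identical pseudogenes with which reads may be shared. CYBA and RAC2, with log2 changes of 0.42 and 0.76, did not pass the test.

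Monocyte and macrophage genes moved in both directions. Of 19 tested, 11 rose and 3 fell (median 1.96); 7 rose without either decitabine 120 h library. ITGAX, the CD11c integrin chain, was at 299.8 and 429.5 normalised counts with decitabine and 29.1 and 25.1 with DMSO, and CLEC7A, the beta-glucan receptor dectin-1, at 348 and 292 with decitabine and 26.9 and 29.5 with DMSO. CD14, the lipopolysaccharide co-receptor, was at 112 and 123 with decitabine and 31.4 and 22.2 with DMSO (2.11 ± 0.53, adjusted p = 0.0306), and its call was lost without any one of the 4 libraries at 120 h. The 3 that fell were CCR2, given above, MS4A6A at 18.5 and 26.4 with decitabine and 109.8 and 128 with DMSO and MS4A7 at 8.47 and 8.76 with decitabine and 21.6 and 31.8 with DMSO. These 3 were named after their values were seen. CD163 and MARCO, macrophage markers, lay under 5 in all 4 libraries.

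**Figure D2:**
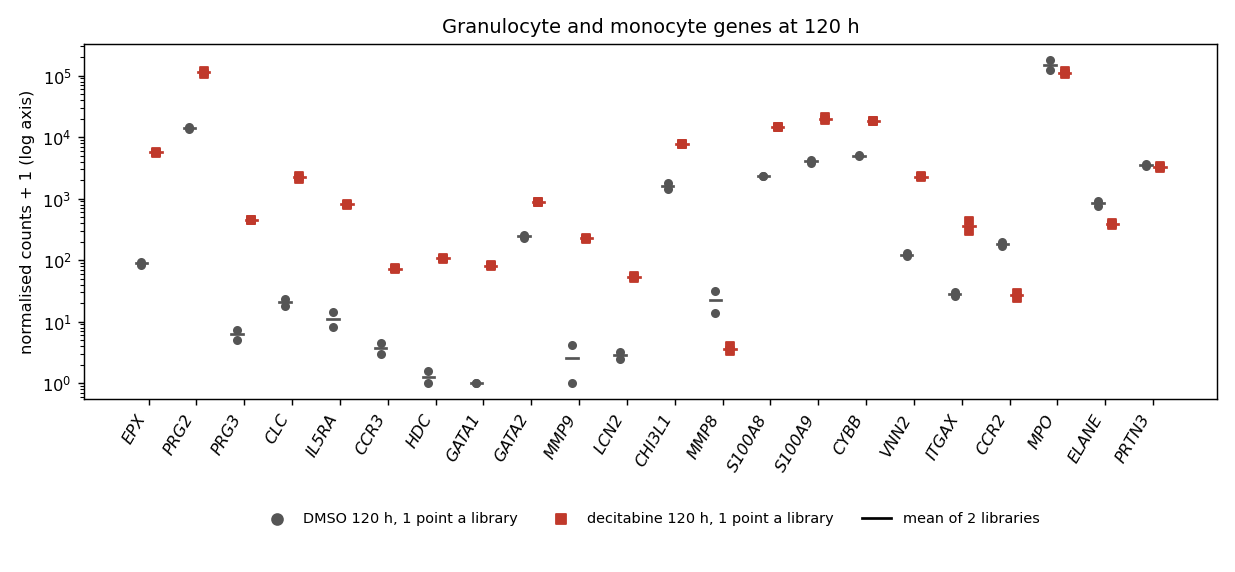
Normalised counts + 1 on a log axis for lineage genes in each 120 h library, with DMSO as grey circles, decitabine as red squares and the mean of 2 libraries as a bar. Many duplicates lie close together, while those of MMP8 and MMP9 in DMSO lie apart. With decitabine, CLC, IL5RA and MMP9 lie far above DMSO and the promyelocyte genes MPO and PRTN3 lie close to it.

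Genes of other lineages were also among the rises. In the lymphoid list, 5 of 11 tested genes lay under 10 in every DMSO library and passed only through a treated one; 3 of the 11 rose and 0 fell (median 1.10), namely CD3D, a T cell receptor chain, from 0 and 0.587 to 142 and 108, GNLY, the cytolytic granulysin, from 1.65 and 1.498 to 353 and 403, and NKG7, a cytotoxic granule protein, from 73.6 and 73.9 to 281 and 242, the last of which lost its call without any one of the 4 libraries. CD3E and MS4A1 stayed under 10 in all 4. The median of the lymphoid list became 0.02 after quantile normalisation. In the epithelial, stromal and endothelial list, LUM, PECAM1 and VIM rose out of 7 tested (median 1.84), of which 3 lay under 10 in every DMSO library. PECAM1, an adhesion molecule, was at 1804 and 1875 with decitabine and 448 and 502 with DMSO. VIM, the filament protein vimentin, was at 5488 and 5680 with decitabine and 1493 and 1627 with DMSO. Leukocytes express both.

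Of 34 tested myeloid transcription factors, 12 rose, 2 fell and 20 were not called (median 0.47), and 6 rose without decitabine 120 h replicate 1. Among the 34, 2 lay under 10 in every DMSO library and passed the filter only through a treated one. SPI1, the master factor PU.1, was at 636 and 639.7 with decitabine and 617 and 594 with DMSO (log2 change 0.08), GFI1, a repressor needed for granulocytes, at 1985 and 2080 with decitabine and 2020 and 2041 with DMSO (0.00), and MYB, a factor of progenitors, at 8117 and 7759 with decitabine and 9322 and 9579 with DMSO (-0.25). CEBPA did not pass the test (-0.61, adjusted p = 0.368), although it did with the 120 h libraries alone. CEBPE, which directs the later granule genes, rose from 1299 and 1505 to 2565 and 2608 (0.89 ± 0.14, adjusted p = 0.00501), a call lost without either decitabine 120 h library. EGR2, a zinc-finger factor of macrophages, was at 29.9 and 25.3 with decitabine and 0.556 and 0 with DMSO, FOSB, an AP-1 subunit, at 59.6 and 68.3 with decitabine and 13.2 and 7.43 with DMSO, and BCL6, a repressor, at 669 and 658 with decitabine and 143 and 97.9 with DMSO. The 2 that fell were MYC and IRF8. IRF8, which favours monocytes over granulocytes, went from 1030 and 1008 to 176 and 191 normalised counts.

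Cytokine receptors rose in part: 12 of 28 tested rose and 0 fell (median 0.85), with 6 and 5 higher without decitabine 120 h replicates 1 and 2 and 3 lower without either decitabine 72 h library. Besides IL5RA these included the interleukin 1 receptor IL1R1, at 137 and 124 with decitabine and 3.91 and 1.69 with DMSO, its decoy IL1R2, at 52.1 and 72.7 with decitabine and 3.56 and 7.37 with DMSO, and IL18R1, at 139.9 and 153 with decitabine and 9.27 and 18.9 with DMSO. IL18R1 lost its call without decitabine 120 h replicate 2. Among the 28 receptor genes, 2 lay under 10 in every DMSO library and passed the filter only through a treated one. Integrin genes showed a like share, 8 of 19 higher and 0 lower (median 0.72), led by ITGA2B, ITGAX, ITGB4 at 33.2 and 62.4 with decitabine and 5.14 and 5.18 with DMSO and ITGA9 at 432 and 412 with decitabine and 38.1 and 97.5 with DMSO.

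Several germ-line genes that were at or near 0 in DMSO were detected with decitabine. Cancer-testis antigens are normally confined to the testis and silenced elsewhere by promoter methylation. Of 61 listed, 11 passed the filter, 9 of these under 10 in every DMSO library, and 8 rose; since members that passed in this way had to differ, the count supports nothing further. The number that rose was 4 without decitabine 120 h replicate 1. Without the filter, 12 of 42 genes above 0 rose and 0 fell. PAGE5 was listed at 0 in both DMSO libraries and stood at 25.7 and 53.3 with decitabine. PAGE2B, also listed at 0 in DMSO, stood at 59.3 and 56.6, and PAGE2 at 16.2 and 30.3, but these neighbours are near-identical and reads may be shared between them.

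In the list of germ-cell, meiosis and piRNA genes, 8 of 18 tested rose and 0 fell (median 1.55), and 4 of the 18 lay under 10 in every DMSO library. DAZL, which binds RNA in germ cells (chr3:16586792-16670306), was listed at 0 in both DMSO libraries and stood at 86.4 and 101 normalised counts. MAEL, of the piRNA pathway, was at 118 and 113 with decitabine and 1.93 and 2.004 with DMSO, HORMAD1, of the meiotic chromosome axis, at 126 and 118 with decitabine and 0.754 and 2.56 with DMSO, and H1-6, the testis linker histone, at 264 and 284 with decitabine and 3.19 and 4.02 with DMSO. Their groups did not overlap, as for every gene called. GTSF1, TEX15 and SOHLH2, which DMSO cells already expressed, had log2 changes of -0.04, 0.05 and -0.27 and did not pass the test.

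Most imprinted and histone genes were not called, and retroelement genes were called in part. Of 18 imprinted genes tested, 0 rose and 1 fell, near the 6% of all genes tested that fell. It was PEG3, from 254 and 251 to 122 and 101, a call lost without any one of the 4 libraries. Without either decitabine 72 h library, 2 imprinted genes rose and 2 fell. Among 9 tested retroelement-derived genes, 3 rose and 1 fell, against 9.91% and 6% of all genes tested. Of the 9, 2 lay under 10 in every DMSO library and passed the filter only through a treated one. The rises included PNMA5 and ERV3-1, an envelope gene of an endogenous retrovirus. ERV3-1 was at 624 and 693 with decitabine and 259 and 212 with DMSO. Among the 48 replication-dependent histone genes tested, 5 lay under 10 in every DMSO library and passed the filter only through a treated one. The list had 7 of 48 higher and 0 lower, with a median of -0.13, where 9.91% of all genes tested rose. These 7 were members that were near 0 or low in DMSO, such as H3C3 at 311 and 348 with decitabine and 1.597 and 0 with DMSO, H2AC14 at 189 and 202 with decitabine and 0 and 4.02 with DMSO and H1-1 at 143 and 155 with decitabine and 1.597 and 0.804 with DMSO, while the more abundant histone genes did not pass the test. Histone genes are near-identical, so single members are uncertain. With either decitabine 120 h library left out, 4 rose, and without either decitabine 72 h library 7 fell.

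The windows of PAGE5 (chrX:55220096-55220395, plus strand) and VNN2 (chr6:132763406-132763705, minus strand) are shown to contrast a germ-line promoter with one of a mature neutrophil gene, with each CG in capitals.
PAGE5: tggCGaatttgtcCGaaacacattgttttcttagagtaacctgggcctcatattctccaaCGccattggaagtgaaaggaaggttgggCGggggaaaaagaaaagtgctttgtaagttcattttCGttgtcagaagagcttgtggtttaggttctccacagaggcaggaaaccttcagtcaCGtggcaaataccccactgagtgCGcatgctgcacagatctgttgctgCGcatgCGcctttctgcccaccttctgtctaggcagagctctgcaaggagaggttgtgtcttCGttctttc
VNN2: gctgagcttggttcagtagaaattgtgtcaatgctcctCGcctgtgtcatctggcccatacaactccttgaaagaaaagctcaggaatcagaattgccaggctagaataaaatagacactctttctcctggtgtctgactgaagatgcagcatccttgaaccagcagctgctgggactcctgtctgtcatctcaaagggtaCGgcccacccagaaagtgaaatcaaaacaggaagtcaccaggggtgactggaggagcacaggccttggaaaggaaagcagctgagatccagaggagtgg
PAGE5 holds 10 CG dinucleotides in its window and VNN2 holds 2, and the observed over expected ratio was 0.56 and 0.11. The median ratio was 0.59 over the 10 of 11 tested cancer-testis genes with a window and 0.21 over 21 of 24 mature neutrophil genes. It was 0.83 over 8051 protein-coding genes that were not called, and 0.86 over 719 that fell. Over all 27305 genes of the window table it was 0.56, near the value of PAGE5, with a median of 14 CG. Only 80.5% of the genes that fell had a window, and for the genes that rose the share was under 80%, so no value is given.

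DNMT1, the maintenance methyltransferase and drug target, was at 5875 and 6000 with decitabine and 6955 and 9527 with DMSO (log2 change -0.46, adjusted p = 0.453). DNMT3B was at 44.9 and 53.7 with decitabine and 45.6 and 51.8 with DMSO (0.01) and DNMT3A at 139.9 and 147 with decitabine and 89.2 and 79.5 with DMSO (0.76); DNMT3A passed the test with the 120 h libraries alone. Of 28 tested writers, readers and erasers, 0 rose and 4 fell (6% of all genes tested fell), namely TET1, TRIM28, UHRF1 and L3MBTL2, with log2 changes of -1.17, -0.74, -0.64 and -0.58. Without any one of the 4 libraries at 120 h, 0 fell, and without any one of the 6 h libraries 1 fell, whereas 7 fell and 2 rose without either decitabine 72 h library. UHRF1, which guides DNMT1 to hemimethylated DNA, went from 2819 and 2624 to 1787 and 1713. CDA, the deaminase that inactivates the drug, was at 196 and 166 with decitabine and 47.1 and 53.2 with DMSO (1.83 ± 0.44, adjusted p = 0.0241). SAMHD1, which cleaves deoxynucleotide triphosphates, fell from 2304 and 2213 to 1306 and 1237 (-0.83), and SLC29A2, a nucleoside transporter, from 119 and 118 to 46.2 and 48.2. The calls of CDA, SAMHD1 and SLC29A2 were lost without any one of the 4 libraries, and 6 of the 18 genes of decitabine uptake and metabolism, rather than 2, fell without either decitabine 72 h library. The activating kinase DCK, at 2025 and 2040 with decitabine and 2091 and 2601 with DMSO, and the main transporter SLC29A1, at 965 and 1003 with decitabine and 1094 and 987 with DMSO, did not pass the test.

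Inflammatory genes rose broadly. NF-kB and the genes it drives, chemokines and interleukin 1 among them, are expressed by activated myeloid cells. Of 29 tested, 19 rose and 0 fell (median 2.08), where 9.91% of all genes tested rose. Among the 29, 5 lay under 10 in every DMSO library and passed the filter only through a treated one. Without decitabine 120 h replicate 1 or 2 or DMSO 120 h replicate 1, the number that rose was 9, 10 and 11. CCL2, a monocyte attractant, was at 832 and 840.2 normalised counts with decitabine and 47.9 and 56.3 with DMSO (3.98 ± 0.31, adjusted p = 0.000175), IL1B at 174 and 155 with decitabine and 9.16 and 14.2 with DMSO and IL1A at 39.6 and 58.4 with decitabine and 2.395 and 3.22 with DMSO. ICAM1, an adhesion ligand, stood at 120 and 101 with decitabine and 9.91 and 8.49 with DMSO. Every decitabine value was several times the DMSO values. The subunits NFKB1, RELA and REL had log2 changes of -0.90, -0.39 and -0.01 and did not pass the test.

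Some interferon genes rose. Interferon-stimulated genes are induced when sensors meet double-stranded RNA, a known effect of demethylating drugs in some tumour cells. Of 26 tested, 7 rose and 0 fell (median 0.86), where 9.91% of all genes tested rose. Among the 26, 3 lay under 10 in every DMSO library and passed the filter only through a treated one. Without either decitabine 120 h library 3 rose, and 12 rose without either decitabine 72 h library. GBP2, a guanylate-binding protein, was at 515 and 534 with decitabine and 68.8 and 40.2 with DMSO, LAMP3 at 136 and 128 with decitabine and 17.7 and 17.9 with DMSO and LGALS3BP at 52.1 and 59.1 with decitabine and 0.651 and 2.18 with DMSO. ISG15, the ubiquitin-like modifier used as a standard readout, was at 56.05 and 44.2 with decitabine and 26.4 and 21.8 with DMSO and did not pass (adjusted p = 0.113), and IFI27 was under 1 in all 4 libraries. Of 18 nucleic-acid sensor genes, 5 rose and 2 fell: AIM2, a DNA sensor of the inflammasome, was at 85.04 and 84.4 with decitabine and 0.546 and 5.399 with DMSO, and TLR8, an endosomal RNA receptor, at 742 and 764 with decitabine and 112 and 109.5 with DMSO. TREX1, a DNA exonuclease, fell from 24.4 and 44.6 to 10.4 and 7.92, a call lost without any one of the 120 h or 6 h libraries. The number of sensors that rose was 2 or 3 without any one of the 120 h libraries. Among the 18 sensor genes, 2 lay under 10 in every DMSO library and passed the filter only through a treated one.

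Of 18 tested genes of class I presentation, 9 rose and 0 fell (median 0.94), with 5 without decitabine 120 h replicate 1 or 2 or DMSO 120 h replicate 1. HLA-E was at 5951 and 6202 with decitabine and 1832 and 1664 with DMSO (1.80 ± 0.19, adjusted p = 0.000767), HLA-C at 7974 and 8275 with decitabine and 2681 and 3051 with DMSO and HLA-B at 4870 and 5405 with decitabine and 2154 and 1746 with DMSO. These genes are polymorphic and alike, so the split of reads between them is uncertain. In class II, 3 of 14 genes were tested: CTSS, a lysosomal protease, rose from 1062 and 1137 to 3418 and 3584, and CD74, the invariant chain, fell from 221 and 265 to 115 and 128, a call lost without any one of the 120 h libraries.

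**Figure D3:**
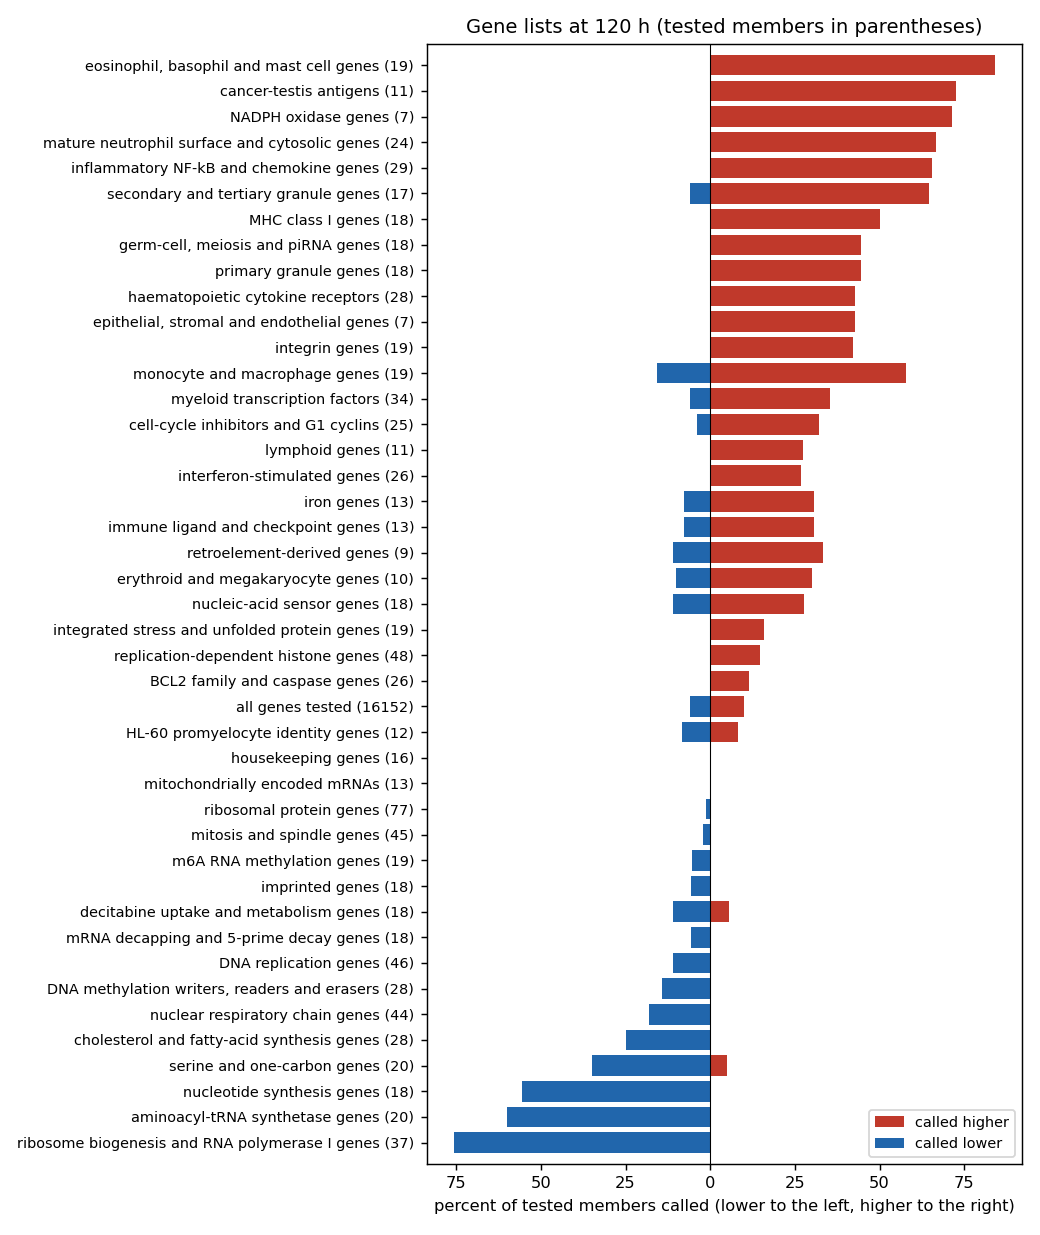
Share of the tested members of gene lists that limma called higher (red, to the right) or lower (blue, to the left), in percent, with the number tested in parentheses and all 16152 genes tested for reference. Eosinophil, neutrophil and NF-kB lists extend to the right, where the eosinophil list has 16 of 19 called higher, and ribosome biogenesis, tRNA synthetase and nucleotide lists extend to the left, with 28 of 37, 12 of 20 and 10 of 18 called lower.

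Most ribosome biogenesis genes fell, as did MYC. MYC, the transcription factor amplified in HL-60, was at 3444 and 3033 normalised counts with decitabine and 14190 and 13100 with DMSO (-2.08 ± 0.18, adjusted p = 0.000342). Ribosome biogenesis, the assembly of ribosomal subunits in the nucleolus, is a classical set of MYC targets. In that list 0 of 37 tested genes rose and 28 fell, with a median log2 change of -1.16 and 0 of 37 above 0. NOLC1, a nucleolar chaperone, went from 10330 and 9740 to 3713 and 3234 (-1.53 ± 0.26, adjusted p = 0.00667), and PES1, a factor of large-subunit maturation (chr22:30576625-30607083), from 2676 and 2571 to 824 and 1006 (-1.52 ± 0.24, adjusted p = 0.00457). LYAR and the RNA polymerase I and III subunit POLR1C fell by 1.53 and 1.75. The groups did not overlap for these genes, as for every gene called. The number that fell was 9 and 10 without decitabine 120 h replicates 1 and 2 and 10 and 16 without DMSO 120 h replicates 1 and 2, and single calls were lost with it: LYAR and POLR1C without any one of these 4, PES1 without decitabine 120 h replicate 1 and NOLC1 without decitabine 120 h replicate 2. Of the ribosomal protein genes, 0 of 77 rose and 1 fell, RPL38 by 0.65, with a median of -0.29. That call was lost without any one of the 120 h or 6 h libraries, whereas 24 of the 77 fell and 1 rose without either decitabine 72 h library, and 18 fell with the 120 h libraries alone.

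Nucleotide synthesis fell in the same direction, with 0 of 18 genes higher and 10 lower (median -0.89). DHODH, the mitochondrial enzyme of pyrimidine synthesis (chr16:72008588-72027664), went from 496 and 560.5 to 192 and 139 (-1.68 ± 0.27, adjusted p = 0.00487). PPAT, the first committed enzyme of purine synthesis, went from 1600 and 1798 to 729 and 696, and PAICS, further along that path, from 7407 and 6645 to 2794 and 3008. The duplicates of both were separated between groups, as for every gene called. CTPS1, which makes CTP, fell by 0.95 but not without decitabine 120 h replicate 2 or DMSO 120 h replicate 1. The count was 3 to 5 without any one of the 120 h or 6 h libraries and 16 without either decitabine 72 h library.

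The promoters of PES1, PPAT and DHODH are shown because each holds CACGTG, the E-box to which MYC with MAX, and other factors, can bind. The windows run as above, with the E-box in capitals, and lie at chr22:30591861-30592160 (minus strand), chr4:56435566-56435865 (minus strand) and chr16:72008494-72008793 (plus strand). The window of PES1 belongs to a start inside the GENCODE gene.
PES1: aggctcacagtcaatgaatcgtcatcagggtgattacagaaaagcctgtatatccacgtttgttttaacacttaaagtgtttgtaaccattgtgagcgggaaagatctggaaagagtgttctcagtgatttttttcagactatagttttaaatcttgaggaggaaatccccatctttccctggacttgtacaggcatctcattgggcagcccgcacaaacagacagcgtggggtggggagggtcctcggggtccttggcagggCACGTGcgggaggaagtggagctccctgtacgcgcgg
PPAT: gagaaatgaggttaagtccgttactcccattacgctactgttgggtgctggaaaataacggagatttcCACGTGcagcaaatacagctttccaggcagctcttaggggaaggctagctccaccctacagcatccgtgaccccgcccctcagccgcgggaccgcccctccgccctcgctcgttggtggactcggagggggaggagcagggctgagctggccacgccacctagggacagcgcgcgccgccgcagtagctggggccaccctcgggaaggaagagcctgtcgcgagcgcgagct
DHODH: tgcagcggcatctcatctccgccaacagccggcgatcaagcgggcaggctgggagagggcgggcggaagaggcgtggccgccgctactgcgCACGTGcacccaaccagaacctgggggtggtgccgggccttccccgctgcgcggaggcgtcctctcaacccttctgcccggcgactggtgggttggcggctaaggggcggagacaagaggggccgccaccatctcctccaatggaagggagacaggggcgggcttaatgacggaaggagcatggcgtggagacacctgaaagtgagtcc
CACGTG reads the same on both strands. It was in a window of 14 of 30 ribosome biogenesis genes that had one (40% when a gene's windows are averaged) and of 5 of 16 nucleotide synthesis genes (27.1%). Among protein-coding genes it was in 17.01% for those that fell and 9.69% for those not called, against 7.29% over all genes of the window table. AGATAA went the other way, with 3.77% of the genes that fell against 5.10% of those not called. These shares describe letters in a window and were not tested.

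Other biosynthetic genes followed. Of 20 aminoacyl-tRNA synthetases, which charge tRNAs, 0 rose and 12 fell (median -0.68): YARS1 went from 2527 and 2558 to 1238 and 1310 and FARSB from 1956 and 1883 to 964 and 991. That count was 2, 2, 3 and 3 without each of the 4 libraries at 120 h and 7 without DMSO 6 h replicate 1 or 2. In serine and one-carbon metabolism 1 of 20 rose and 7 fell (median -0.59), among them PSAT1 from 919 and 683 to 315 and 305 and MTHFD1L from 1005 and 1003 to 292 and 422, and 3 or 4 fell without any one of the 120 h libraries. The gene that rose was the cystine transporter SLC7A11, at 1311 and 1145 with decitabine and 396 and 499.7 with DMSO, a call lost without any one of those libraries. In cholesterol and fatty-acid synthesis 0 of 28 rose and 7 fell (median -0.55). ACACA, acetyl-CoA carboxylase, went from 1488 and 1618 to 503 and 519.8 (-1.60 ± 0.14, adjusted p = 0.000313) and SCD, the stearoyl-CoA desaturase, from 4451 and 5057 to 1679 and 1760. Here 3 fell without decitabine 120 h replicate 1 or 2 or DMSO 120 h replicate 2, and 15 without either decitabine 72 h library. Respiratory chain genes of the nucleus had 0 of 44 higher and 8 lower (median -0.37), with 1 or 2 lower without any one of the 120 h libraries and 18 without either decitabine 72 h library. The 13 mitochondrially encoded mRNAs had 0 called in either direction (median -0.38).

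Of 45 genes of mitosis and the spindle, 0 rose and 1 fell (median -0.08), PLK1 from 477 and 495 to 269 and 274, a call lost without any one of the 4 libraries, while 2 rose and 6 fell without either decitabine 72 h library. Of 46 DNA replication genes, 0 rose and 5 fell (median -0.42; 6% of all genes tested fell), for example MCM2 from 1812 and 2161 to 1264 and 1026 (-0.80 ± 0.20, adjusted p = 0.0294). The number that fell was 0, 0, 1 and 0 without decitabine 120 h replicates 1 and 2 and DMSO 120 h replicates 1 and 2, 2 without any one of the 6 h libraries and 19 without either decitabine 72 h library.

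Of 25 tested inhibitors and G1 cyclins, 8 rose and 1 fell. The list also holds genes that drive the cycle: CCND2, CCND3 and E2F2 were among those that rose, by 0.71, 1.36 and 1.23 on the log2 scale, and CDK4 was the 1 that fell, by 0.68, while 0 fell without any one of the 4 libraries at 120 h. CDKN2B, the p15 inhibitor of CDK4 and CDK6, was at 249.6 and 231 with decitabine and 28.7 and 13.6 with DMSO (3.54 ± 0.39, adjusted p = 0.000882), CDKN1A, the p21 inhibitor, at 98.7 and 93.1 with decitabine and 13.9 and 11.03 with DMSO, and BTG2, an antiproliferative gene, at 418 and 374 with decitabine and 36.3 and 44.9 with DMSO. The groups did not overlap, as for every gene called. The number that rose was 5 without decitabine 120 h replicate 1 or 2 or DMSO 120 h replicate 2. In the BCL2 family and caspases 3 of 26 rose, near the 9.91% of all genes tested, and 0 fell, while 7 and 8 rose and 2 fell without decitabine 72 h replicates 1 and 2. Those that rose include BCL2A1, an NF-kB target that restrains apoptosis, at 711 and 683 with decitabine and 90.3 and 108 with DMSO, and BIRC3 at 36.98 and 24.8 with decitabine and 2.604 and 2.09 with DMSO. BCL2 was at 1093 and 962 with decitabine and 2004 and 1655 with DMSO and did not pass (adjusted p = 0.144), although it did with the 120 h libraries alone.

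**Figure D4:**
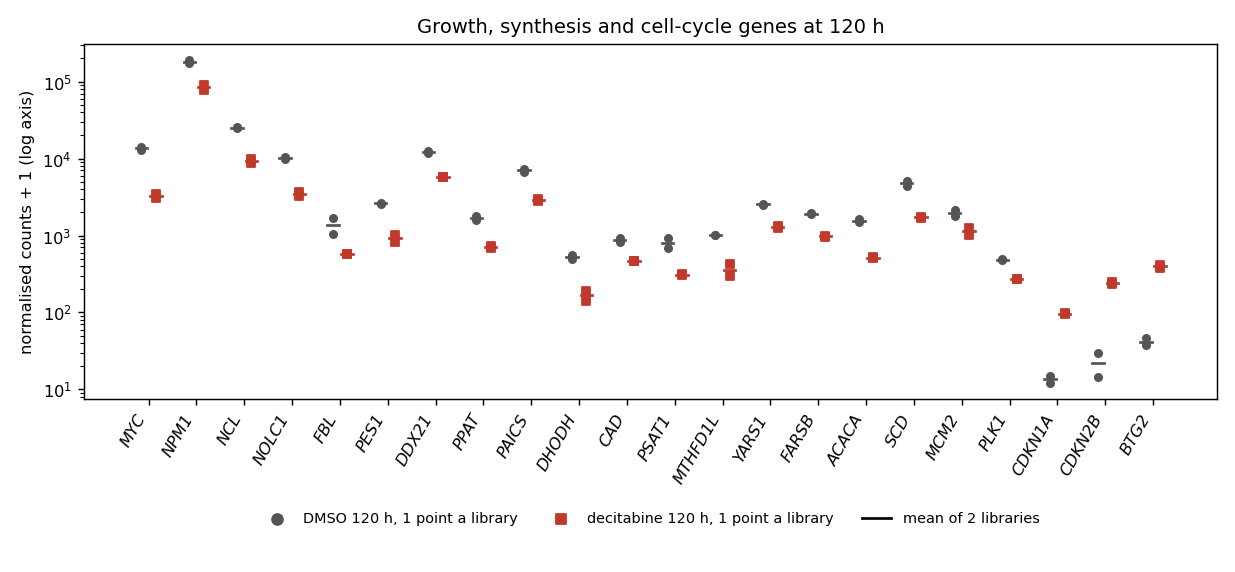
Normalised counts + 1 on a log axis for growth, synthesis and cell-cycle genes in each 120 h library, with DMSO as grey circles, decitabine as red squares and means of 2 libraries as bars. From MYC to SCD the decitabine points lie below DMSO, and for CDKN1A, CDKN2B and BTG2 they lie above it.

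Of 13 iron genes 4 rose and 1 fell: HMOX1, haem oxygenase, was at 36.8 and 30.7 with decitabine and 0.590 and 0 with DMSO and SLC11A1, a phagosomal metal transporter, at 741 and 657 with decitabine and 66.4 and 102 with DMSO. The number that rose was 2 without decitabine 120 h replicate 1, and 7 rose and 3 fell without either decitabine 72 h library. Among the 13 iron genes, 2 lay under 10 in every DMSO library and passed the filter only through a treated one. In mRNA decapping and decay 0 of 18 rose and 1 fell, near the 6% of all genes tested that fell. That gene was EDC4, which fell by 1.06. DCP2, the decapping enzyme, was at 2740 and 2604 with decitabine and 2091 and 2011 with DMSO (0.38). Among m6A factors 0 of 19 rose and 1 fell, METTL16, by 1.29, again near the 6% of all genes tested. METTL3, the writer, was at 585 and 586 with decitabine and 607 and 603 with DMSO (-0.05). Among 13 immune ligand and checkpoint genes 4 rose and 1 fell, with CD86, a co-stimulatory ligand, at 488 and 482 with decitabine and 111 and 185 with DMSO and LGALS9, galectin-9, at 268 and 244 with decitabine and 728 and 626 with DMSO. The number of these that rose was 0 without either decitabine 120 h library, 1 without either DMSO 120 h library, and 1 or 2 without any one of the 6 h libraries. In the list of integrated stress and unfolded protein genes 3 of 19 rose and 0 fell, with 1 higher without decitabine 120 h replicate 1 and 7 higher and 3 lower without either decitabine 72 h library. EDC4 and METTL16 lost their calls without decitabine 120 h replicate 1 and others of the 4. Without either decitabine 72 h library, 6 m6A factors fell and 2 decapping genes rose. Of 16 housekeeping genes 0 were called (median -0.19), with log2 changes of 0.27 for ACTB and -0.13 for GAPDH. Without either decitabine 72 h library, 4 of the housekeeping genes fell, as they did in number with the 120 h libraries alone.

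Most of these changes had the same sign at 72 h, the day after the last dose. Of the 1601 genes that rose at 120 h, 1530 were also above DMSO at 72 h (median log2 change 1.05), against 8968 of 16152 tested genes, and 282 were called higher there, where 353 of all genes tested were called (2.19%; 1.88% higher and 0.31% lower). Of the 969 that fell, 53 were above DMSO at 72 h (median -0.56) and 42 were called lower. At 6 h, 774 of the 1601 and 525 of the 969 were above DMSO, and 0 genes were called at 6 h in limma (541 genes at an unadjusted p under 0.05). CLC was at 154 and 56.0 with decitabine and 17.9 with DMSO at 72 h and IL5RA at 244 and 218 with decitabine and 1.26 with DMSO. VNN2 was at 478 and 278 with decitabine and 187 with DMSO, and MYC at 3872 and 2839 with decitabine and 11410 with DMSO. DMSO at 72 h had 1 library, assumed to vary like the other groups. Cells taken at 6 h had received only the dose at 0 h, so time and the doses at 24 and 48 h cannot be told apart. The effect at 120 h differed from that at 6 h for 953 genes in limma (5.9%), 689 with a higher effect at 120 h (4.27%) and 264 with a lower one (1.63%), and these include 671 of the 1601 and 253 of the 969. The difference between the effects at 120 and 72 h was called for 0 genes (limma; 1022 genes at an unadjusted p under 0.05, smallest adjusted p = 0.276), and again for 0 with sample weights or a replicate block. Without decitabine 72 h replicate 1 it was called higher for 1236 and lower for 1665 genes, and without replicate 2 for 0 and 0. Replicate 2, the library left in the former setting, lay 0.59 to 0.73 from every other library in median log2.

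**Figure D5:**
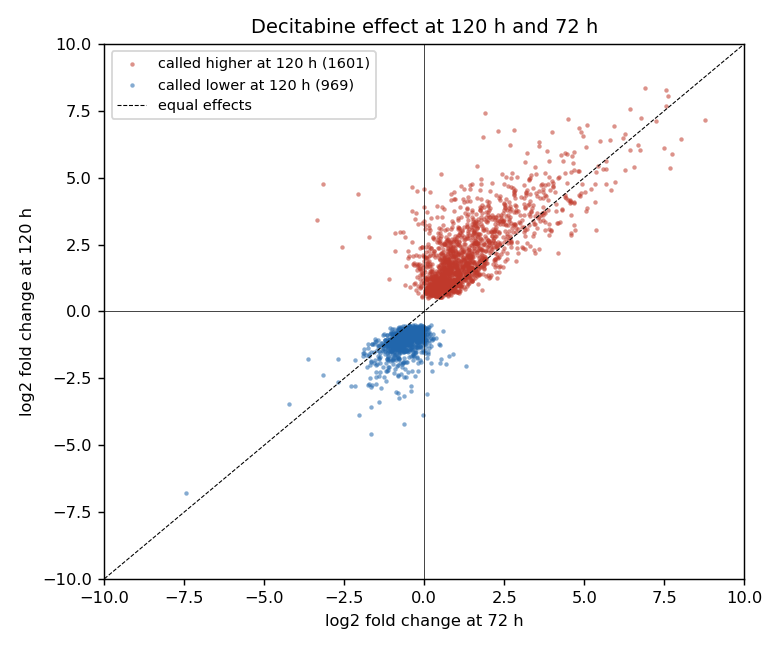
The log2 change with decitabine at 72 h is on the horizontal axis and that at 120 h on the vertical axis, with 1 point for each gene called at 120 h. Of the genes that rose at 120 h, 1530 of 1601 lie to the right of 0, and of those that fell, 53 of 969 do.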

How the data were processed

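The deposited table holds gene counts divided by a size factor per library by the authors, a normalised signal per the name of the table and its low values. The submitters' processing notes list hg38, DESeq2, Salmon 1.2.1, STAR, featureCounts and limma without role or order, and no source used here says whether counting used strand. The deposited heading was taken to begin with the symbol, and 0 columns of values were left unused; DMSO 72 h replicate 2 was not analysed here. Some genes are not reported here. About 61% of low values came out as whole multiples of 1 count within 0.01, too few for a count model, so limma 3.58.1 (R 4.3.3) was run on log2(value + 1). Fold changes are on that scale, which understates those of low genes.

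Genes reaching 10 or more in 2 or more libraries were fitted with 6 group means over 11 libraries, with a variance trend and Benjamini-Hochberg adjustment, and called at an adjusted p under 0.05. The fit was tested on simulated data. Coordinates and gene types come from GENCODE 29 on hg38, promoter windows from RefSeq on GRCh38.p14, and plots from matplotlib 3.10.9.

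Gene lists, members and tests were chosen with earlier results of these data known. Named genes are the 15 largest rises and falls with a mean of at least 50 in the higher group, up to 4 called members of each list by size of change, cell type markers and a fixed list of regulators. Other genes were named after their values were seen, which holds for most members named as not passing the test and for CCND2, CCND3, E2F2 and CDK4. Same-numbered libraries of different groups did not deviate together (correlations of -0.08 to 0.12). Alternatives were the 120 h libraries alone, a replicate block, other scalings, pseudocounts of 0.5 and 5, no filter, a minimum of 50, no trend, sample weights and each library left out.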

Additional observations from a re-analysis of the deposited data

Results flagged for a closer look

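The effect of decitabine at 120 h differed from its effect at 6 h, by the interaction test in limma, for 953 genes (5.9% of those tested): 689 had a higher effect at 120 h and 264 a lower one. Of the 1601 genes that rose at 120 h, 671 were among the former, and of the 969 that fell, 253 were among the latter. Among the genes chosen by the naming rule, 107 differed in this way. Cells at 6 h had received only the dose at 0 h, so time and the doses at 24 and 48 h cannot be told apart.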

How the results depend on the processing

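Against 1601 genes higher and 969 lower, the 120 h libraries alone gave 1924 lower (2328 higher), quantile normalisation 1465 lower, sample weights 2709 and 2322, and leaving out both decitabine 72 h libraries, an alternative chosen after seeing the data, 2557 and 2397. Leaving out 1 library at a time gave 591 to 2557 higher and 207 to 2392 lower. The same settings gave 0 to 1236 higher and 0 to 1665 lower effects at 120 h than at 72 h, and 175 to 1597 higher and 39 to 1391 lower than at 6 h. Without DMSO 72 h replicate 1 no value against 72 h could be had. With the replicate number as a block, 1545 genes rose and 918 fell, of which 1478 and 862 were shared with the fit without it; the labels give the duplicates only a number. The cause of these changes was not tested. No called result changed direction; the median of the erythroid and megakaryocyte list went from 0.38 to -0.01 with quantile normalisation. Of 188 genes of the naming rule, 53 lost their call without decitabine 120 h replicate 1 or 2, 26 with no filter on low values, and 46 and 48 when DMSO 120 h replicates 1 and 2 were left out. With 2 libraries a group, genes near the filter had little precision.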

Other observations

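The genes in this paragraph were named after their values were seen. Several abundant genes of mature leukocytes rose: CR1, a complement receptor, stood at 11940 and 10260 with decitabine and 715 and 800.2 with DMSO (3.87 ± 0.17 on the log2 scale, limma adjusted p = 3.32e-05), and S100A6, a calcium-binding protein, at 10950 and 8725 with decitabine and 281 and 376 with DMSO. LYZ, lysozyme, went from 109603 and 120910 to 274384 and 277087, and SRGN, the proteoglycan of granules, from 40261 and 36097 to 86969 and 88464. MNDA, a nuclear antigen of myeloid cells, went from 9452 and 6993 to 24240 and 24550. The surface antigen CD52 rose from 15.2 and 11.2 to 989 and 1089. IL32, a cytokine, was listed at 0 in both DMSO libraries and stood at 83.5 and 75.5 with decitabine. In all 7 both decitabine libraries exceeded both DMSO libraries, as in every gene called higher.

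Among highly expressed genes that fell, NPM1, the nucleolar chaperone nucleophosmin, went from 190372 and 174413 to 78964 and 90937 (-1.10 ± 0.21, adjusted p = 0.0102) and NCL, nucleolin, from 25402 and 25227 to 9805 and 8883. HSP90AB1, a heat-shock chaperone, went from 37820 and 33670 to 15680 and 14660, and ODC1, the first enzyme of polyamine synthesis, from 6558 and 6534 to 2967 and 3125. TERT, the catalytic subunit of telomerase, went from 160.4 and 297 to 54.6 and 47.4 (-2.08 ± 0.49, adjusted p = 0.023). NPM1 has many processed pseudogenes with which reads may be shared. These genes, too, were named after their values were seen.

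Classes of transcripts differed in their share of calls. Of 143 tested snoRNA genes 0 rose, against 9.91% of all genes tested. Of the same genes 10 fell (6.99%), near the 6% of all genes tested that fell. The snoRNAs guide the modification and cleavage of ribosomal RNA, and many lie in introns of host genes, from which reads cannot be told apart. SNORD3A, the U3 snoRNA of ribosomal RNA cleavage, is among the 10, was named after its values were seen, and has near-identical copies. Of 946 lincRNAs 82 rose (8.67%, near the 9.91% of all genes tested) and 9 fell (0.951%). Of 858 antisense genes 59 rose (6.88%) and 10 fell (1.17%), against 1357 and 895 of 12264 protein-coding genes. Of these lincRNAs 115, and of the antisense genes 102, lay under 10 in every DMSO library. Reads of antisense genes may come from their partners on the other strand. Falls were also rarer at low levels in any class: 2.46% of genes with a DMSO mean of 10 to 100 fell, against 12.7% between 1000 and 10000. The part of level in the shares of the classes was not tested.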
